A study of Mus musculus with 8 samples.

Results

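The replication-dependent histone genes encode the H1, H2A, H2B, H3 and H4 proteins that package newly copied DNA. They were taken as the gene rows whose Ensembl identifier carries a protein-coding symbol beginning with Hist1h, Hist2h, Hist3h or Hist4h in GENCODE release M21. This rule found 67 of the 55471 gene rows, with 6 H1, 18 H2A, 18 H2B, 12 H3 and 13 H4 genes. The study captured the long noncoding RNA Lhx1os from cultured mouse motor neurons and sequenced the RNA that came with it. The cells were HBG3 embryonic stem cells with the HB9::GFP reporter, in which the Hb9 promoter drives green fluorescent protein in motor neurons, differentiated to spinal motor neurons and kept for 3 days after plating. Input was RNA of these cells without a probe, LacZ was a control pull-down with probes to a bacterial mRNA, and ODD and EVEN were pull-downs with separate sets of biotinylated probes of 20 nt to Lhx1os. All 8 libraries came from the same untreated line, with 2 libraries in each of the 4 groups. The library numbered 1 and the library numbered 2 of a group belonged to the first and the second of the independent pull-down experiments that the design describes. The design sets each pull-down against Input.

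Replication-dependent histone mRNAs are the main mRNAs of animal cells that end without a poly(A) tail. Their 3′ end is cut just after a short stem-loop, which is bound by the stem-loop binding protein SLBP and serves in processing, translation and decay of the mRNA. They are made in S phase, when core histones wrap new DNA and H1 binds the DNA between nucleosomes, and are degraded when replication ends. Cells that have left the cell cycle, such as mature neurons, rely on replacement histones from polyadenylated mRNAs of genes outside the clusters. The libraries were made from total RNA after removal of ribosomal RNA, per the labels' protocols, a method that does not select for poly(A).

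The genes lay in clusters on GRCm38, with 54 on chromosome 13 between 21715763 and 23934851, 10 on chromosome 3 between 96219865 and 96270132, 2 on chromosome 11 and 1, Hist4h4, on chromosome 6. All annotated isoforms had a single exon in 62 of the 67. The stem-loop was searched in the annotated transcripts after the stop codon, on the transcript strand only, as a stem of 6 pairs that opens with GG, closes with CC and holds a loop of 4 bases after a T-A pair. It was found in 46 of the 67 genes, 21 to 58 bases after the stop codon with a median of 31. Of the other 21 genes, 17 had an annotated 3′ UTR shorter than 50 bases, so most of these windows could not hold it. Among the 46, an annotated transcript ended within 10 bases after the stem-loop in 2. The annotation ran on past it for 4884 bases in Hist1h1d and 2445 bases in Hist4h4, so the counted exons can be longer than an mRNA cut at the stem-loop. The same pattern was present after the stop codon in 148 of 21951 protein-coding genes, or 0.674%, and 102 of the 148 were not histone genes of this rule. The main forms follow as transcript sequence, 5′ to 3′, with the 4 bases of the loop in capitals; they are shown because the stem separates H4 from the other types.

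stem-loop of 26 H1, H2A, H2B and H3 genes: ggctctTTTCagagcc
stem-loop of 7 H4 genes: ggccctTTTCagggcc
stem-loop of 6 H1, H2B and H3 genes: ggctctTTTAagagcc
stem-loop of Hist1h4i and Hist2h4: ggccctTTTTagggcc
stem-loop of Hist1h4b and Hist1h4j: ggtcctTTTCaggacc

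The first form was carried by Hist1h1d at chr13:23555787-23555802 on the plus strand, the second by Hist1h4d at chr13:23581950-23581965 on the plus strand and the third by Hist1h3e at chr13:23561903-23561918 on the minus strand, each in the 3′ UTR. The remaining forms were found in 1 gene each, Hist1h4a, Hist1h3g and Hist2h2ac.

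Histone mRNA was abundant in Input and most of the genes were on. In FPKM, the deposited counts scaled to exon length and to the library's total, the highest member was Hist1h4h with 221 and 237 in the 2 Input libraries, followed by Hist1h3e with 181 and 216, Hist1h1a with 177 and 201, and Hist1h1b with 198 and 179. The ranges of the last 3 overlap, so their order is not set by these libraries. The mean FPKM in Input had a median of 130.2 over the 6 H1 genes, 13.2 over the 18 H2A genes, 52.1 over the 18 H2B genes, 116 over the 12 H3 genes and 83.2 over the 13 H4 genes. The H4 genes all lay well above the count floor in Input, from 24.2 in Hist4h4 to 229 in Hist1h4h. These FPKM depend on the annotated exon length. Hist4h4, annotated with 2863 bases, had 1598 and 1508 counts in Input, and Hist1h4f, with 391 bases, had 1484 and 1470. The mean FPKM of Hist1h4f was 169. The order of genes in FPKM and the medians by type carry this limit. The testis variants were at or near 0. The testis linker histone Hist1h1t had 1 to 4 counts in a library, the testis H2B Hist1h2ba had 1 count in 1 library, and Hist1h2aa had 0 counts in all 8 libraries. A count of 0 allows up to 3 counts, which in CPM, counts scaled to the size of the library, is 0.122 in the deepest library and 0.393 in the shallowest. Near-identical copies share reads: in 32 of the 67 genes over 50% of the 50-base words also occurred in a transcript of another gene, and the authors' handling of reads that fit several copies is not stated in the sources at hand. Hist1h2ao, Hist1h2ap, Hist1h2br, Hist2h2aa1 and Hist2h2aa2, with at most 14 counts in a library, are such copies, and their low values are uncertain, as is the 0 in all 8 libraries of Hist2h3c1, whose words all occur in another gene. In addition, 24 genes overlap another annotated gene, among them Hist1h1e and Hist1h2be, which overlap each other. Every H2A gene is among the 24. How reads in such overlaps were counted is not stated in the sources at hand, so the low H2A median carries this limit.

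Total counts were between 7632775 and 24628435 per library, and each Input was deeper than the pull-downs. Summed over all 67 genes, histone counts were 0.323% and 0.381% of the Input libraries. Lhx1os, the captured RNA, was at 2.26 and 2.97 CPM in Input and at 2.06 and 2.43 CPM with LacZ probes, against 180 and 35.6 CPM with ODD and 149 and 25.4 CPM with EVEN probes, so the labels of the probe sets held. Motor neuron markers were present (Isl1 at 42.6 and 90.2 CPM and Mnx1 at 48.3 and 68.9 CPM in Input), the pluripotency factor Pou5f1 was at 0 in all 8 libraries and the astrocyte marker Gfap was at most 0.868 CPM. Genes of dividing cells were also present, with Mki67 at 304 and 426 CPM and Top2a at 772 and 599.6 CPM in Input. In bulk RNA, fewer cells of a type and less RNA per cell cannot be told apart.

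Histone mRNA was more abundant in the pull-downs than in Input in the first experiment, and less abundant in the second, whichever probe set was used. Summed over the 67 genes, it was 3279 CPM in Input against 9114, 8762 and 8767 CPM in LacZ, ODD and EVEN of the first experiment, and 3805 CPM in Input against 3116, 3139 and 2873 CPM in LacZ, ODD and EVEN of the second. The pull-downs were thus 2.67 to 2.78 times their Input in the first experiment and 0.755 to 0.825 times their Input in the second. The 2 Input libraries were alike beside this, at 3279 and 3805 CPM. By type, the mean log2 ratio to the own Input was 1.38 ± 0.06 (SD, n = 3 pull-downs) in the first and 0.27 ± 0.05 (SD, n = 3) in the second experiment for H1, 1.51 ± 0.05 (SD, n = 3 pull-downs) in the first and -0.43 ± 0.07 (SD, n = 3) in the second experiment for H2A, 1.63 ± 0.06 (SD, n = 3 pull-downs) in the first and -0.41 ± 0.07 (SD, n = 3) in the second experiment for H2B, 1.28 ± 0.05 (SD, n = 3 pull-downs) in the first and -0.79 ± 0.12 (SD, n = 3) in the second experiment for H3 and 1.5 ± 0.09 (SD, n = 3 pull-downs) in the first and -0.71 ± 0.10 (SD, n = 3) in the second experiment for H4. The core histones changed side between the experiments, while summed H1 lay above its Input in both. H1 made up 25.8% to 28.6% of histone counts in the pull-downs of the first experiment, 40% to 41.3% in those of the second, and 28.1% and 26.8% in the Input libraries. These sums are descriptions with no test, since the 3 pull-downs of an experiment share that experiment.

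**Figure D1:**
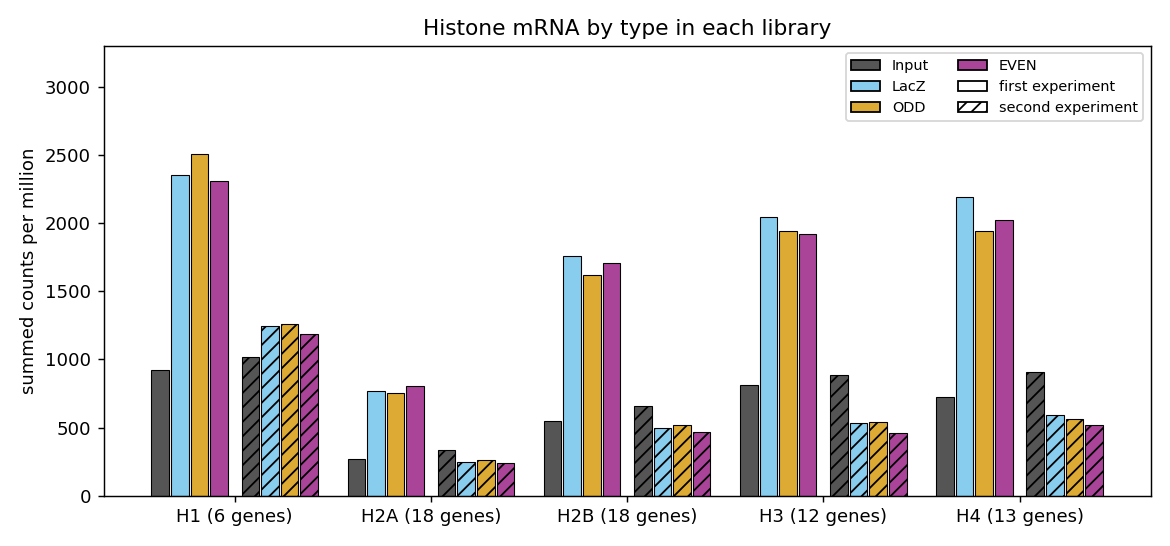
Summed CPM of the histone genes of each type (horizontal axis, with the number of genes) in the 8 libraries, 1 bar per library, coloured by group and hatched for the second experiment. The 3 pull-downs of the first experiment stand above all other libraries for every type; in the second experiment the pull-downs stand below Input for H2A, H2B, H3 and H4 and above it for H1.

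The design's own comparison, each pull-down group against Input over both experiments, called no histone gene. Of the 67 genes, 58 passed edgeR's default filter on low counts. For ODD against Input, 0 of 58 passed an adjusted p of 0.05 (edgeR, Benjamini-Hochberg), while 6.84% of the 16524 genes tested did. For EVEN 0 of 58 passed against 5.66% of all genes, and for LacZ 0 of 58 against 7.41%. At an unadjusted p under 0.05 there were 2 histone genes for ODD, 2 for EVEN and 3 for LacZ. The estimates were nevertheless mostly above 0, with a median log2 fold change of 0.68 for ODD (56 of 58 positive), 0.69 for EVEN (57 of 58) and 0.74 for LacZ (56 of 58), beside medians of -0.03, -0.0019 and -0.05 over all genes. ODD, EVEN and LacZ share the Input libraries, so these medians are not independent of each other. The medians rested on the first experiment: without ODD replicate 1 the ODD median was -0.44 and without ODD replicate 2 it was 1.30; the EVEN values were -0.54 and 1.29, and the LacZ values -0.39 and 1.36.

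With the replicate number as a block, 3 of 58 histone genes passed for ODD, 2 for EVEN and 2 for LacZ (edgeR), beside 19.2%, 19.3% and 19.7% of all genes. The linker histone Hist1h1b was higher in all of these, by 0.94 for ODD (adjusted p = 0.00901), 0.85 for EVEN (adjusted p = 0.0139) and 0.86 for LacZ (adjusted p = 0.0121) on the log2 scale. Hist1h1d was also higher in each, by 1.18 for ODD, 0.90 for EVEN and 0.91 for LacZ, at an adjusted p of 0.0193, 0.049 and 0.0469. Hist2h2be was lower in ODD (-0.85, adjusted p = 0.0459). The block fit called 2086 genes higher and 1083 lower for ODD against 1068 and 62 without the block; for EVEN the counts were 2123 and 1059 against 888 and 47, and for LacZ 2092 and 1157 against 1153 and 71. With no filter on low counts the fit without the block called 11 of 65 histone genes higher for ODD, 10 for EVEN and 12 for LacZ, beside 6.34%, 5.81% and 6.37% of 28192 genes, and DESeq2 called 1 for ODD, Hist1h1d (log2 fold change 1.29, adjusted p = 0.0267).

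No histone gene differed past the threshold between the Lhx1os probes and the LacZ probes. With ODD and EVEN averaged and set against LacZ, 0 of 58 histone genes passed (edgeR), beside 0% of all 16524 genes, and at an unadjusted p under 0.05 there were 0 histone genes and 218 genes in all; DESeq2 also called 0 histone genes. The median log2 difference over the 58 genes was -0.05, with estimates from -0.48 to 0.25 and 14 of 58 above 0. Within an experiment the probe sets gave nearly the same values: the log2 ratio of a gene to its Input differed between a pair of pull-downs by 0.0985 to 0.122 on average in the first experiment and by 0.165 to 0.231 in the second. Between pull-downs of different experiments the average difference was 1.8 to 2.02.

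Between the experiments the histone genes shifted in one direction. In the fit with group and experiment as terms, 39 of 58 were lower in the second experiment (edgeR), beside 12.4% of all genes lower, and none was higher. The median log2 difference was -1.34, with a range of -1.69 to -0.06. The 10 genes with the smallest p were Hist1h1b, Hist1h2bp, Hist1h2bl, Hist1h2bm, Hist1h3d, Hist1h4n, Hist1h3c, Hist1h2bk, Hist1h4i and Hist1h3f, with adjusted p from 0.0107 to 0.0198. This fit gives Input and pull-downs 1 common shift, and its count was not stable: without ODD replicate 1 or ODD replicate 2 it was 2, without any 1 of the LacZ or EVEN libraries it was 0, and without Input replicate 1 or Input replicate 2 it was 56.

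Pull-downs and Input were therefore compared within each experiment. This fit, chosen after the values were seen, takes the 3 pull-downs of an experiment together against its Input and estimates the spread from the pull-downs alone. The lone Input library of an experiment is assumed to vary like the pull-downs, and the p-values do not cover variation between experiments, of which there were 2. In the first experiment 55 of 58 histone genes were higher in the pull-downs (edgeR, adjusted p under 0.05), beside 17.7% of all genes, with a median log2 fold change of 1.45. The 10 with the smallest p were Hist1h2be, Hist1h2bj, Hist1h2bc, Hist1h2bm, Hist1h4b, Hist1h1c, Hist1h2bk, Hist2h3b, Hist2h4 and Hist1h1a. The fold of the 58 genes over Input in CPM had a median of 2.74. In the second experiment 39 of 58 were lower, beside 19.2% of all genes, and 2 were higher, beside 17.5%, with a median log2 fold change of -0.57. There the 10 with the smallest p were Hist1h3d, Hist1h3f, Hist1h4j, Hist1h4f, Hist1h4a, Hist3h2ba, Hist1h3g, Hist1h3h, Hist1h4k and Hist1h3e, all lower and all but Hist3h2ba of type H3 or H4. In all, 38 genes were higher in the first and lower in the second experiment, 15 were higher in the first and not past the threshold in the second, and 2 were higher in both. By overlap of single libraries, all 3 pull-downs exceeded Input for 56 of 58 genes in the first experiment, beside 39.4% of all genes, and all 3 lay below Input for 47 of 58 in the second, beside 42%. The count for the second experiment depended on GC content: with each library's trend on GC removed it was 27 in all, with 23 lower and 4 higher, beside 17.3% and 20.6% of all genes, and the median was -0.26.

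**Figure D2:**
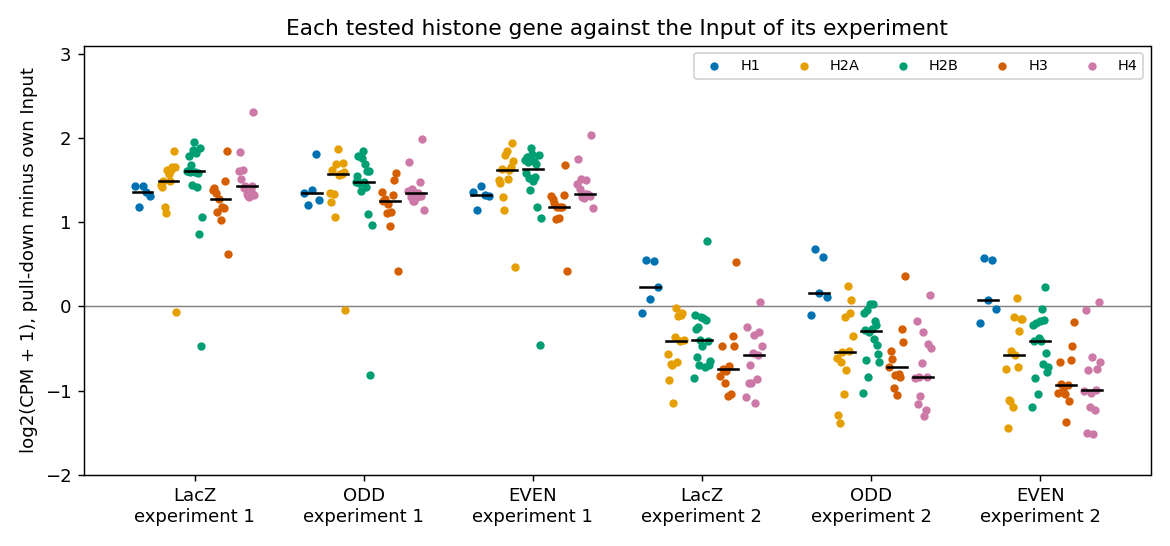
Difference in log2(CPM + 1) between each of the 6 pull-down libraries and the Input of its experiment (vertical axis) for the 58 tested histone genes, 1 point per gene, coloured by type, with a black line at the median of the type. In the first experiment 56, 56 and 57 of 58 points lie above 0 in LacZ, ODD and EVEN, and in the second 7, 10 and 6 do, beside 44.3% to 50.5% of all genes over the 6 libraries.

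The change over Input itself differed between the experiments. The difference of the log2 fold changes, second minus first, was below 0 for all 58 genes and past the threshold for 53 (edgeR, adjusted p from 0.000597 to 0.032), beside 4.75% of all genes called lower. Its median was -2.08 and its range -2.77 to -0.18; over all 16524 genes the median was -0.05. The 10 histone genes with the smallest p were Hist1h3d, Hist1h2be, Hist1h2bj, Hist1h4d, Hist3h2ba, Hist2h3b, Hist1h4a, Hist1h4f, Hist1h2bc and Hist1h2ab. Of the 500 genes with the most negative difference, 48 were histone genes. The direct comparison of the pull-downs gave 56 of 58 lower in the second experiment, beside 21.3% of all genes, with a median of -1.84. Between the Input libraries the median was 0.19. This sets 1 library against 1, with the spread taken from the pull-downs, so its calls compare these libraries only: 9 of 58 were higher in the second Input, beside 9.05% of all genes, and none was lower. Those 9 were Hist1h2ai, Hist2h2ab, Hist1h2bb, Hist1h2bf, Hist2h2bb, Hist3h2ba, Hist2h3b, Hist1h4d and Hist1h4j, and the number fell to 3 with DESeq2 or limma, 4 without ODD replicate 2, and 0 with the trend on exon length removed.

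**Figure D3:**
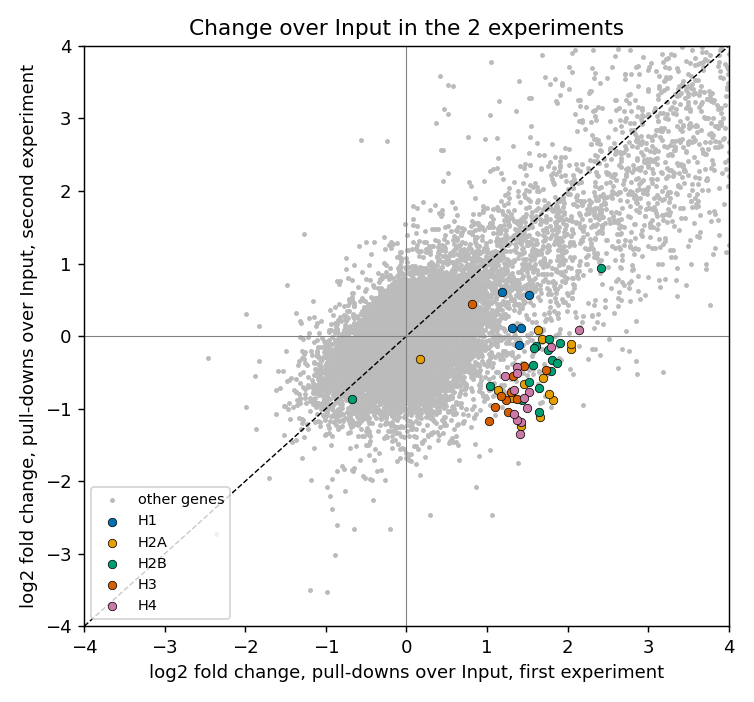
Fitted log2 fold change of the pull-downs over Input in the first (horizontal) and second (vertical) experiment, 1 point per gene, with histone genes coloured by type, other tested genes in grey and a dashed line where both are equal. The histone genes lie below the line, most of them right of 0 and below 0; 534 other genes and 0 histone genes lie beyond the axes.

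Linker histones, which bind the DNA between nucleosomes, rose over Input in the first experiment, and none fell below it past the threshold in the second. Of the 5 tested H1 genes, 5 rose over Input in the first experiment (median log2 fold change 1.39), and 2 were higher and 0 lower in the second (median 0.11). The difference passed for 4 of 5, with a median of -1.20 and a range of -1.52 to -0.57. Hist1h1d (ENSMUSG00000052565, chromosome 13, 23553262 to 23560686, plus strand) had 218 CPM in Input against 561, 767 and 547 in LacZ, ODD and EVEN of the first experiment, and 242 CPM against 351, 363 and 357 in the second. The pull-downs lay above their Input in both experiments, and those of the first above those of the second. The fitted log2 fold change of the pull-downs over Input was 1.52 (SE 0.19) in the first and 0.56 (SE 0.18) in the second experiment, and the difference for Hist1h1d was -0.96 (SE 0.25, edgeR adjusted p = 0.0605). Hist1h1e (ENSMUSG00000051627, chromosome 13, 23620629 to 23622558, minus strand) had 235 CPM in Input against 587, 567 and 585 in LacZ, ODD and EVEN of the first experiment, and 289 CPM against 338, 312 and 283 in the second. Here too the first pull-downs stood apart at the top, and the second ones were on both sides of Input. For Hist1h1e the fitted log2 fold changes over Input were 1.31 (SE 0.12) and 0.11 (SE 0.11), and their difference was -1.20 (SE 0.15, edgeR adjusted p = 0.00477). Hist1h1c, the next most abundant by CPM, had 186 CPM in Input against 502, 487 and 502 in LacZ, ODD and EVEN of the first experiment, and 208 CPM against 222, 233 and 219.7 in the second, with a difference of -1.31 (SE 0.11). In the second experiment Hist1h1b and Hist1h1d passed the threshold as higher, by 0.61 (SE 0.09, edgeR adjusted p = 0.00178) and 0.56 (SE 0.18, adjusted p = 0.0423). The call of Hist1h1d was lost without any 1 of the 3 pull-downs of that experiment and with the GC trend removed, where the value was 0.06. ODD replicate 1 was the highest library of Hist1h1d, and without it the difference was -0.79 and passed. Hist1h1a had the largest difference of the 5, -1.52 (SE 0.12). Whether H1 differs from the core histones in this respect was not tested.

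H2A, which pairs with H2B on the outer part of the nucleosome, changed side for most genes. Of the 13 tested H2A genes, 12 rose over Input in the first experiment (median log2 fold change 1.66), and 8 were lower in the second (median -0.66). The difference passed for 12 of 13, with a median of -2.17 and a range of -2.77 to -0.48. Hist1h2ak (ENSMUSG00000063021, chromosome 13, 21753435 to 21753827, minus strand) had 57.2 CPM in Input against 179, 173 and 178 in LacZ, ODD and EVEN of the first experiment, and 61.4 CPM against 56.7, 72.9 and 66.1 in the second. The pull-downs of the first experiment lay above every other library for Hist1h2ak, and those of the second lay on both sides of their Input. For Hist1h2ak the fitted log2 fold changes over Input were 1.63 (SE 0.14) and 0.09 (SE 0.13), and their difference was -1.54 (SE 0.18, edgeR adjusted p = 0.00337). Hist2h2ac (ENSMUSG00000068855, chromosome 3, 96220361 to 96220880, minus strand) had 46.8 CPM in Input against 150.5, 144 and 157 in LacZ, ODD and EVEN of the first experiment, and 53.3 CPM against 50.5, 56.2 and 48.2 in the second. Here too the first pull-downs stood apart at the top, and the second ones were on both sides of Input. For Hist2h2ac the fitted log2 fold changes over Input were 1.69 (SE 0.12) and -0.05 (SE 0.11), and their difference was -1.73 (SE 0.15, edgeR adjusted p = 0.00118). Hist1h2ab, the next most abundant by CPM, had 31 CPM in Input against 85.9, 80.3 and 89.7 in LacZ, ODD and EVEN of the first experiment, and 41.9 CPM against 28.1, 27.1 and 24.7 in the second, with a difference of -2.12 (SE 0.15). The sign of the small second-experiment values turned with the settings: Hist1h2ak had -0.69 with the exon length trend removed, and Hist2h2ac 0.34 with the GC trend removed.

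H2B, the partner of H2A, rose over Input for nearly all genes in the first experiment. Of the 16 tested H2B genes, 15 rose over Input and 1 fell below it in the first experiment (median log2 fold change 1.64), and 10 were lower in the second (median -0.38). The difference passed for 14 of 16, with a median of -1.98 and a range of -2.69 to -0.18. Hist1h2bg (ENSMUSG00000058385, chromosome 13, 23571396 to 23572013, plus strand) had 70.9 CPM in Input against 229.5, 198 and 207 in LacZ, ODD and EVEN of the first experiment, and 81.7 CPM against 69, 79.2 and 71 in the second. The pull-downs of the first experiment lay above every other library for Hist1h2bg, and those of the second lay below their Input. For Hist1h2bg the fitted log2 fold changes over Input were 1.58 (SE 0.12) and -0.16 (SE 0.11), and their difference was -1.74 (SE 0.16, edgeR adjusted p = 0.00141). Hist1h2be (ENSMUSG00000047246, chromosome 13, 23583670 to 23621124, minus strand) had 56.2 CPM in Input against 196, 196 and 195 in LacZ, ODD and EVEN of the first experiment, and 67.6 CPM against 55.9, 55.4 and 50.7 in the second. Here too the first pull-downs stood apart at the top, and the second ones were below Input. For Hist1h2be the fitted log2 fold changes over Input were 1.8 (SE 0.09) and -0.32 (SE 0.08), and their difference was -2.13 (SE 0.12, edgeR adjusted p = 0.000597). Hist2h2bb, the next most abundant by CPM, had 46.8 CPM in Input against 175, 145 and 166 in LacZ, ODD and EVEN of the first experiment, and 67.6 CPM against 50.7, 49.1 and 45.9 in the second, with a difference of -2.27 (SE 0.17). With the GC trend removed Hist1h2bg had 0.10 in the second experiment. Hist1h2be and the linker gene Hist1h1e overlap on the minus strand, and how reads in the overlap were assigned is not stated in the sources at hand.

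H3, which forms the core of the nucleosome with H4, fell below Input in the second experiment for most genes. Of the 11 tested H3 genes, 10 rose over Input in the first experiment (median log2 fold change 1.26), and 10 were lower in the second (median -0.83). The difference passed for 10 of 11, with a median of -2.08 and a range of -2.31 to -0.37. Hist1h3e (ENSMUSG00000069273, chromosome 13, 23561534 to 23562369, minus strand) had 153 CPM in Input against 373, 358 and 350.1 in LacZ, ODD and EVEN of the first experiment, and 181 CPM against 106, 102 and 87.1 in the second. The pull-downs of the first experiment lay above every other library for Hist1h3e, and those of the second lay below their Input. For Hist1h3e the fitted log2 fold changes over Input were 1.24 (SE 0.12) and -0.88 (SE 0.11), and their difference was -2.11 (SE 0.17, edgeR adjusted p = 0.000822). Hist1h3c (ENSMUSG00000069310, chromosome 13, 23744973 to 23745602, minus strand) had 108 CPM in Input against 279, 266 and 255 in LacZ, ODD and EVEN of the first experiment, and 110.3 CPM against 65.3, 70.9 and 57.8 in the second. Here too the first pull-downs stood apart at the top, and the second ones were below Input. For Hist1h3c the fitted log2 fold changes over Input were 1.30 (SE 0.12) and -0.77 (SE 0.11), and their difference was -2.07 (SE 0.17, edgeR adjusted p = 0.000826). Hist1h3f, the next most abundant by CPM, had 126 CPM in Input against 257, 245 and 262 in LacZ, ODD and EVEN of the first experiment, and 131 CPM against 62, 62.2 and 49.5 in the second, with a difference of -2.19 (SE 0.19).

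H4, the partner of H3, changed over Input between the experiments for every gene. Of the 13 tested H4 genes, 13 rose over Input in the first experiment (median log2 fold change 1.41), and 11 were lower in the second (median -0.77). The difference passed for 13 of 13, with a median of -2.29 and a range of -2.76 to -1.78. Hist1h4d (ENSMUSG00000061482, chromosome 13, 23581598 to 23582735, plus strand) had 108 CPM in Input against 335, 287 and 313 in LacZ, ODD and EVEN of the first experiment, and 161 CPM against 99.1, 89.7 and 94.7 in the second. The pull-downs of the first experiment lay above every other library for Hist1h4d, and those of the second lay below their Input. For Hist1h4d the fitted log2 fold changes over Input were 1.52 (SE 0.12) and -0.77 (SE 0.10), and their difference was -2.29 (SE 0.15, edgeR adjusted p = 0.000822). Hist1h4h (ENSMUSG00000060981, chromosome 13, 23531050 to 23531519, plus strand) had 105 CPM in Input against 285, 253 and 258 in LacZ, ODD and EVEN of the first experiment, and 111 CPM against 75.4, 69.2 and 53.9 in the second. Here too the first pull-downs stood apart at the top, and the second ones were below Input. For Hist1h4h the fitted log2 fold changes over Input were 1.34 (SE 0.18) and -0.75 (SE 0.16), and their difference was -2.08 (SE 0.24, edgeR adjusted p = 0.00312). Hist2h4, the next most abundant by CPM, had 51.8 CPM in Input against 262, 209 and 216 in LacZ, ODD and EVEN of the first experiment, and 67.6 CPM against 70.0, 74.4 and 70.0 in the second, with a difference of -2.07 (SE 0.19).

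Beside Hist1h1d, the difference did not pass the threshold for Hist2h2be, Hist3h2a, Hist2h3c2 and Hist1h2bq. The H2B gene Hist2h2be had 7.37 CPM in Input against 5.02, 3.78 and 5.07 in LacZ, ODD and EVEN of the first experiment, and 4.87 CPM against 2.61, 2.98 and 2.42 in the second. All pull-downs were below their Input in both experiments. Its log2 fold changes over Input were -0.68 (SE 0.21, edgeR adjusted p = 0.0393) and -0.87 (SE 0.23, adjusted p = 0.0214), and it was the only one of the 58 genes called lower in both. The difference was -0.18 (SE 0.32, edgeR adjusted p = 0.781). The H2A gene Hist3h2a, which overlaps Trim17 and Gm44313, had 15.9 CPM in Input against 15.2, 15.4 and 22.5 in LacZ, ODD and EVEN of the first experiment, and 15.3 CPM against 11.4, 11.8 and 13.7 in the second. The first pull-downs lay on both sides of Input and the second ones below it, and the difference was -0.48 (SE 0.31, edgeR adjusted p = 0.41). Hist2h3c2 and Hist1h2bq had at most 26 and 24 counts in a library, and differences of -0.37 (SE 0.60, edgeR adjusted p = 0.768) and -1.48 (SE 1.15, edgeR adjusted p = 0.49). A stem-loop was found in Hist3h2a and Hist2h3c2 and not in Hist2h2be or Hist1h2bq.

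The difference was of similar size with and without a stem-loop in the annotation. Among the 40 tested genes with one the median difference was -2.08 and 37 passed, and among the 18 without one it was -2.05 and 16 passed. Most genes of the second kind have an annotated 3′ UTR too short to hold it; of the 3 tested genes with a longer one and no stem-loop, 1 passed, with a median of -1.48. The 21 tested genes with the form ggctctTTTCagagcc had a median difference of -2.08, the 5 with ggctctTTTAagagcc a median of -2.11, and the 7 H4 genes with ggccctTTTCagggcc a median of -2.29. Across the 58 genes the difference had a Pearson r of 0.38 and a Spearman rho of 0.35 with exon length, -0.28 and -0.24 with GC content, and -0.31 and -0.24 with the percentage of 50-base words shared with other genes. Without the 5 H1 genes the values were 0.31 and 0.23 for length, -0.21 and -0.15 for GC content and -0.14 and -0.07 for shared words. These describe genes of the same 8 libraries, which are not independent of each other.

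Other short genes also had negative differences, with a smaller median. The histone genes are short, with merged exons of 312 to 7425 bases. Of the 197 other protein-coding genes under 1000 bases that were tested, 91 (46.2%) were called lower in the difference and 0 higher, with a median of -1.02. Of the 28 among them with 1 exon, 7 were lower, with a median of -0.90, while the 316 genes of 1 exon and any length had 23 lower and a median of -0.14. Over other coding genes in bins of length, the median went from -1.04 in the 66 genes between 519 and 748 bases to 0.30 in the 412 genes between 13882 and 20000 bases.

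With each library's trend on exon length removed, fitted on genes other than the histone genes, 51 of 58 histone genes passed with a median difference of -1.75 (edgeR), beside 365 genes lower and 31 higher in all (785 and 349 without the correction) and a median over all genes of -0.10. With the trends on length and GC content removed together 51 passed with a median of -1.77, beside 387 genes lower and 28 higher. In the first experiment the length correction took the median log2 fold change of the histone genes from 1.45 to 0.71, with 51 higher and 1 lower, beside 3801 and 2105 of all genes (2917 and 2486 without it) and a median over all genes of 0.10. Length and GC content together gave 1.00 with 54 higher, beside 4549 genes higher and 1989 lower. In the second experiment the length correction took the median from -0.57 to -1.09, with 48 lower beside 17.8% of all genes, and length and GC content together gave -0.80, with 42 lower beside 17%. RLE size factors changed the split of all genes in the difference to 742 lower and 632 higher, and DESeq2 to 644 and 522, with 53 and 54 histone genes lower. The part of length in the histone result was not tested beyond these corrections.

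**Figure D4:**
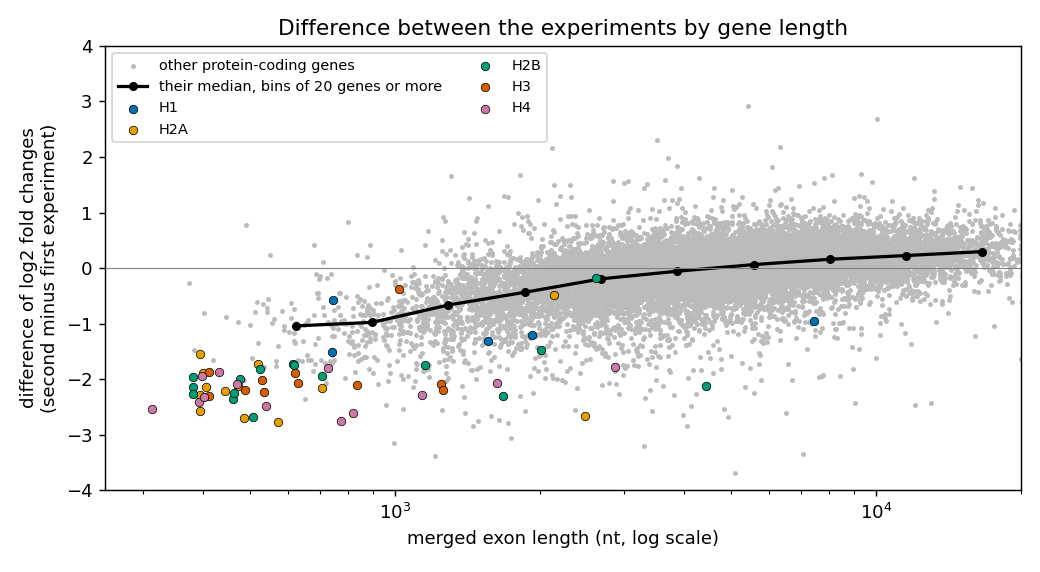
Difference of the log2 fold changes over Input, second minus first experiment (vertical axis), against merged exon length on a log axis, 1 point per gene, with other protein-coding genes in grey, their median in length bins as a black line and histone genes coloured by type. Most histone genes lie below the line; the line goes from -1.04 in its bin of 519 to 748 bases to 0.30 at the long end, and 113 genes lie beyond the axes.

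Replacement histones, most of which come from polyadenylated mRNAs, had 6 of 11 genes lower in the difference, beside 4.75% of all genes, and 0 higher, with a median of -0.71. H2afx, the H2A variant marked at DNA breaks, had 159.6 CPM in Input against 241, 259 and 254 in LacZ, ODD and EVEN of the first experiment, and 185 CPM against 109, 106 and 96.4 in the second. Its pull-downs lay above Input in the first experiment and below it in the second, with a difference of -1.49 (SE 0.14, edgeR adjusted p = 0.00141). The other genes that passed were H2afv and H2afz, which encode H2A.Z (-1.10, SE 0.13, edgeR adjusted p = 0.00393, and -0.58, SE 0.14, adjusted p = 0.0466), H3f3a, a source of H3.3 (-0.98, SE 0.14, adjusted p = 0.00764), H2afj (-0.95, SE 0.16, adjusted p = 0.0149) and the linker variant H1fx (-0.57, SE 0.13, adjusted p = 0.0406). H3f3b, the other source of H3.3 and the most abundant of the list with 612 and 679.5 CPM in Input, had a difference of -0.71 (SE 0.20, edgeR adjusted p = 0.0774). H2afy2 had 827 CPM in ODD replicate 1 and 94.7 to 157 CPM in the other 7 libraries.

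The lists that follow are read against all genes, of which 2.11% were called higher and 4.75% lower in the difference. Of 16 genes of histone mRNA processing and decay, 0 were lower and 1 was higher in the difference, with a median of 0.18. The gene that passed was the decay helicase Upf1 (0.56, SE 0.13, edgeR adjusted p = 0.0476). Srrt, a partner of the cap-binding complex, and Sympk, a scaffold of the cleavage complex, had 0.42 (edgeR adjusted p = 0.18) and 0.25 (adjusted p = 0.273). Of 12 histone chaperones 1 was higher and 0 lower, with a median of -0.04. Cabin1, of the complex that deposits H3.3, passed (0.50, SE 0.11, edgeR adjusted p = 0.0323), and the H2A-H2B chaperone Nap1l1 had -0.28 (adjusted p = 0.414).

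For genes of the cell cycle the shares called were near those of all genes. Of 24 S-phase genes 1 was lower and 0 higher in the difference, with a median of 0.09. That gene was Tyms, of thymidylate synthesis (-0.56, SE 0.13, edgeR adjusted p = 0.0424), while the ribonucleotide reductase genes Rrm1 and Rrm2 had 0.54 (edgeR adjusted p = 0.176) and 0.00299 (adjusted p = 0.998). Summed, the S-phase genes had 1811 and 1626 CPM in the first and second Input, 1666 to 1719.7 CPM in the pull-downs of the first experiment and 1615 to 2020.0 CPM in those of the second. Of 18 genes of G2 and M phase 1 was lower and 0 higher, with a median of 0.14. The lower gene was Ube2c, a ubiquitin-conjugating enzyme of mitotic exit (-1.16, SE 0.17, edgeR adjusted p = 0.00854), and Top2a and Mki67 had 0.89 (edgeR adjusted p = 0.0902) and -0.06 (adjusted p = 0.897). Whether these lists differ from the histone genes was not tested.

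**Figure D5:**
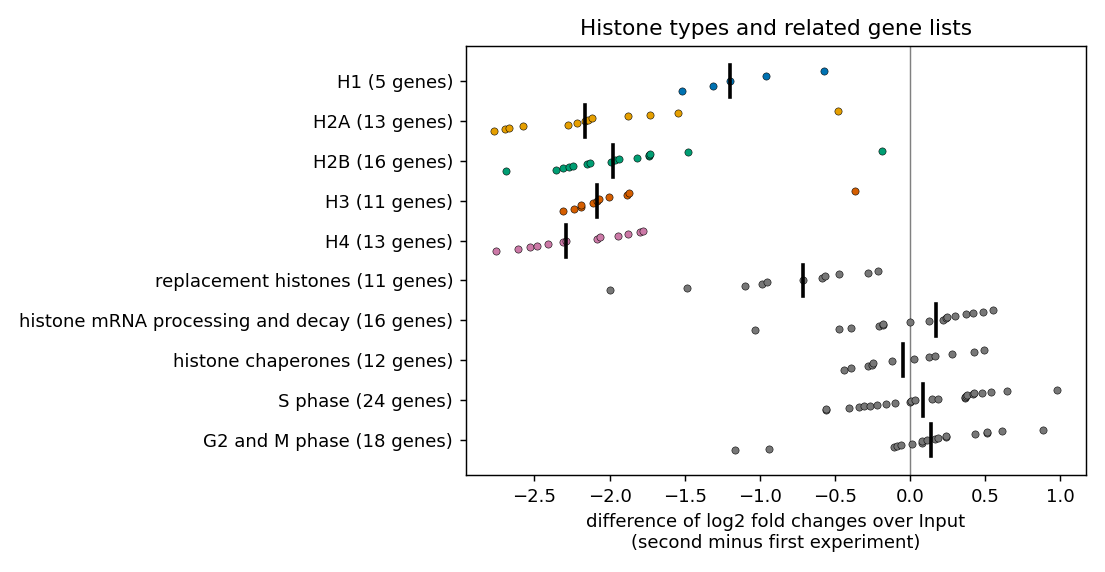
Difference of the log2 fold changes over Input, second minus first experiment (horizontal axis), for each tested gene of the 5 histone types and of 5 related lists (vertical axis, with the number of genes), with a black line at the median. The medians of H2A, H2B, H3 and H4 lie between -2.29 and -1.98, H1 at -1.20, replacement histones at -0.71 and the other lists between -0.04 and 0.18.

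Markers of several cell types differed in level between the experiments. The 9 motor neuron markers summed to 294 CPM in Input and 307 to 320.4 in the pull-downs of the first experiment, and 752 and 683 to 723 CPM in the second. The 10 neural progenitor markers summed to 3363 CPM in Input and 2895 to 3013 in the pull-downs of the first experiment, and 2817 and 2391 to 2524 CPM in the second. The 8 glial markers summed to 1533 CPM in Input and 1575 to 1707 in the pull-downs of the first experiment, and 748 and 669 to 892 CPM in the second. The 6 fibroblast markers summed to 226 CPM in Input and 119 to 128 in the pull-downs of the first experiment, and 113 and 104 to 180.4 CPM in the second. The sum of motor neuron markers was thus higher in every library of the second experiment, and the sums of progenitor and glial markers lower, while the pull-downs overlapped for fibroblast markers. This holds for the sums and not for each gene. Prph had 44.4 CPM in the first Input and 319 in the second. Mnx1 rose from 48.3 to 68.9 CPM in Input. In LacZ, ODD and EVEN it had 57.0, 56.8 and 56.8 CPM in the first experiment and 53.5, 52.6 and 53.2 in the second. The 7 pluripotency markers summed to at most 13.7 CPM in a library.

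In the difference itself, 2 motor neuron markers were lower (Mnx1 at -0.61 and Lhx3 at -0.92) and 2 progenitor markers (Hes5 at -0.88 and Nkx2-2 at -0.67), with medians of -0.18 and -0.10 over the lists (edgeR). The glial marker Slc1a3 was higher, at 0.75. Of the fibroblast markers 1 was higher (Col1a1 at 0.94), with a median of 0.68. The part of these cell types in the histone result was not tested.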

How the data were processed

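RNA of mouse HBG3-derived motor neurons was sequenced in 8 libraries. The authors' deposited counts are whole reads per gene, and their deposited FPKM equal the count over exon length and total count, scaled, to a largest relative difference of 6.66e-14. The submitters' processing notes name cutadapt 3.2, Bowtie2 2.4.2, Picard, HTSeq 0.13.5 and GRCm38; strand setting and handling of multiply mapped reads are not stated in the sources at hand. Of 55471 identifiers, 55144 were found in GENCODE M21.

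Counts were tested with edgeR 4.0.16 (R 4.3.3; TMM factors, its default filter by group, quasi-likelihood test, Benjamini-Hochberg threshold of 0.05 over all 16524 genes). CPM use TMM-scaled library sizes; shares of a library and limits for 0 counts use its total. Groups came from the sample labels. The comparisons of each pull-down group with Input, of the Lhx1os probes with LacZ, and of the experiments were planned; those within an experiment, their difference and the length corrections were added after seeing the data. Alternatives were DESeq2 1.42.0, limma 3.58.1 on log2(FPKM + 1), other size factors, no filter, a filter of 50 counts in 2 libraries, GC and length trends (splines with 5 degrees of freedom), a replicate block, and leaving out each library. Replicate numbers mark the pull-down experiment in the labels, and same-numbered libraries deviated together (r from 0.517 to 0.719 over 6 pairs). Libraries of a group differed beyond counting noise (chi-square per degree of freedom from 32.6 to 64.8). p-values measure the spread between these libraries, which may be technical.

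Simulated counts over 16524 genes, 200 of them changed, gave ODD against Input a recovery of 90.5% at a log2 change of 1 and 100% at 2. For the difference between experiments it was 27.5% and 99%. False calls there were 16 among 71 and 24 among 222. The ODD rates cannot be read as power for the histone genes. Their median for ODD against Input was 1.30 without ODD replicate 2 and -0.44 without ODD replicate 1. With both, 0 of 58 passed at a median estimate of 0.68 and a highest of 1.52. That 0 therefore does not exclude changes of such size. Total counts per library, 7632775 to 24628435, limit the precision; a count of 0 allows up to 3 counts. Genes named in full are the members with the highest mean CPM in each type; the 10 with the smallest p are listed. H2afz, H2afj, H1fx, H2afy2 and the exceptions to the difference were named after their values were seen. The members, gene lists and rules were chosen with earlier results of these data known. For the glial list the difference is given for 1 gene, and another result of that list is not reported here.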

Additional observations from a re-analysis of the deposited data

Results flagged for a closer look

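The change over Input differed between the 2 experiments by a test of the difference itself (edgeR, second minus first) in 53 of 58 histone genes. Among the 10 genes described in full, 9 were of this kind. In the H1 gene Hist1h1e the difference was -1.20, and in the H2A genes Hist1h2ak and Hist2h2ac it was -1.54 and -1.73. The H2B genes Hist1h2bg and Hist1h2be had -1.74 and -2.13. Hist1h3e and Hist1h3c had -2.11 and -2.07, and the H4 genes Hist1h4d and Hist1h4h had -2.29 and -2.08. The 3 pull-downs of an experiment share that experiment and its Input.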

How the results depend on the processing

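For ODD, EVEN and LacZ against Input, where edgeR called 0 histone genes, no filter on low counts gave 11, 10 and 12 of 65 (6.34%, 5.81% and 6.37% of all genes higher), the replicate block 3, 2 and 2 of 58 (19.2%, 19.3% and 19.7% of all genes), and the replicate block with the GC trend removed 3, 2 and 3 (22.3%, 22.1% and 22.6%); DESeq2 gave 1 for ODD. ODD and EVEN averaged against LacZ gave 0 in every setting run. The second against the first experiment gave 0 to 56 when single libraries were left out, beside 39. For the pull-downs of the second experiment against Input, removing the GC trend gave 27 called genes in place of 41. For the second against the first Input the count of 9 became 3 with DESeq2, 3 with limma on log2(FPKM + 1), 0 with the exon length trend removed, 1 with length and GC trends removed, and 4 to 13 without single libraries. In the second experiment Hist1h2ak turned to -0.69 with the length trend removed, -0.17 with length and GC trends removed and ranged from -0.0064 (without ODD replicate 2) to 0.17 without single libraries, Hist2h2ac to 0.0073 with the filter of 50 counts and 0.34 with the GC trend removed, and Hist1h2bg to 0.10 with the GC trend removed. Summed FPKM in place of counts gave log2 ratios to Input of 0.22 for H1 in the second experiment, 1.58 and -0.35 for H2A, 1.35 for H3 in the first, and 1.48 and -0.46 for all genes; RLE size factors gave 1.39 for all genes in the first. The causes were not tested. The difference between experiments was called in 51 to 54 histone genes across settings and in 52 to 53 without single libraries. With 1 Input library per experiment, the spread of Input rests on that of the pull-downs. Genes with under 50 counts are limited by depth.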

Other observations

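Pseudogene rows named after the clusters were outside the rule. The processed pseudogene Hist1h2al had 489 counts in Input against 667, 944 and 933 in LacZ, ODD and EVEN of the first experiment, and 417 counts against 306, 291 and 257 in the second. The Input libraries are deeper, so in CPM the pull-downs of the first experiment were at 75.8 to 85.9 and Input at 20.1, and those of the second at 23.1 to 27.9 and Input at 20.3. Its difference of the pull-down change, second minus first experiment, was -1.64 (SE 0.18, edgeR adjusted p = 0.00261). Hist3h2bb-ps, also a processed pseudogene, had 49 and 101 counts in Input and 18 to 64 in the pull-downs. In CPM it had 2.02 in Input against 7.21, 3.86 and 5.41 in LacZ, ODD and EVEN of the first experiment. In the second it had 4.91 CPM in Input against 2.61, 1.73 and 1.88. The difference for Hist3h2bb-ps was -2.64 (SE 0.50, edgeR adjusted p = 0.0217). The unprocessed pseudogene Hist1h2aj had at most 2 counts in a library. Reads from near-identical genes and these rows cannot be told apart here.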
